A study of Rattus norvegicus with 12 samples.

Results

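Marcksl1 and Marcks are the genes of the MARCKS family of actin-binding membrane proteins, and their transcripts were measured in hearts of young adult rat offspring. The rows were taken by gene symbol, which gave 1 row for each gene, 2 of the 17322 gene models in the table. Both are among the 12980 models that passed the filter on low values. The pair was chosen by the measured difference of Marcksl1 between offspring of diabetic and lean dams in these same libraries. Differences between dams are therefore given below for both genes as a description, with no test, and tests are kept for the offspring's own diet and for the interaction of dam and diet.

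MARCKS proteins attach to the inner face of the plasma membrane through a fatty acid on their first residues and through a short basic stretch, the effector domain. This domain binds the signalling lipid PIP2, actin filaments and calcium-loaded calmodulin, and protein kinase C releases the protein from the membrane by phosphorylating it. Marcks is broadly expressed and well known from brain and macrophages, while Marcksl1, also called MLP or F52, is a shorter relative known from developing brain and from immune cells.

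All animals were Sprague Dawley rats, an outbred stock, and whole hearts were collected at 15 weeks of age. Gestational diabetes (GDM) was modelled by feeding dams high fat and sucrose (HFS) before mating, in pregnancy and while nursing, whereas a low fat (LF) diet was given to Lean dams. Offspring were assigned at random to LF or HFS at weaning, at 3 weeks. The 4 groups of 3 libraries carry the dam first and the offspring's diet second: Lean-LF and Lean-HFS, then GDM-LF and GDM-HFS. In this model the dam's diabetes and the dam's diet come together and cannot be told apart, and litter membership is not in the labels. P-values therefore measure only the spread between these samples, some of which may be littermates.

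Each value is a scaled read signal: reads of a gene model, normalised per library by the authors and then divided by a factor that aligns the bulk of genes between libraries. It is not divided by gene length. Without ribosomal RNA models, read totals were 9172734 to 11622377 in the Lean and 10418380 to 14418970 in the GDM libraries. All 8 cardiomyocyte markers checked were present, with a summed signal of 90700 to 192100 per library.

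The gene models of the 2 members differ in a way that bears on every value of Marcksl1. On Rnor_6.0, the build of the table, Marcks is a single model on chromosome 20 from 42966140 to 42971838, plus strand, exon and intron together, and it overlaps no other model. The Marcksl1 row is given on chromosome 1 from 84792039 to 84812668, minus strand, a span of 20629 bases that overlaps no other model either. The same row names the band 5q36, on another chromosome, and states that it holds 2 placements of the transcript. Its length entry is 11476 bases. In all 16766 rows with 1 placement this entry is end minus start and a whole number. Among 498 rows with 2 placements it differs from end minus start in 175 and ends in 0.5 in 97, as a mean over 2 spans can. If the entry is such a mean, which the table does not state, the other Marcksl1 placement spans 2323 bases. Its position is not in the table, and the reads of the 2 placements cannot be told apart. In rows with 2 placements all 2146 values above 0 are whole reads within 0.1 read, so they are not means of 2 placements.

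RefSeq starts Marcksl1 on chromosome 5, the chromosome of the band named in the row and not that of its coordinates. The 250 bases before the start of each gene are shown to identify the RefSeq gene of each symbol. They do not show where the reads of a row came from. They come from RefSeq on the GRCr8 build, where Marcksl1 has chr5:147135577-147135826, plus strand, and Marcks has chr20:42245883-42246132, minus strand. The Marcks row on Rnor_6.0 is on the plus strand, so the strands differ between the builds, and the reason was not tested. Capitals mark matches on either strand to CCAAT or to GGGCGG.
Marcksl1: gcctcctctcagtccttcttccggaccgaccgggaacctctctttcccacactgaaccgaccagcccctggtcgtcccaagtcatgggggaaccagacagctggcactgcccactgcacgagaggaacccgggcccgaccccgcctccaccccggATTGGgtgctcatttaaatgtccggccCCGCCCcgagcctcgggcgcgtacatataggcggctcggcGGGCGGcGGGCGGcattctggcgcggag
Marcks: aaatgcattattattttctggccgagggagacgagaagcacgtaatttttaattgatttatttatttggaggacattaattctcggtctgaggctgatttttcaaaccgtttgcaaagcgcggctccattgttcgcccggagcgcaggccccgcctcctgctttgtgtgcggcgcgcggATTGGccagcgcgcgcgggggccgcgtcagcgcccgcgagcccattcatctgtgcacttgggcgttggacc

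Both windows hold 1 match to CCAAT, a motif found in 34.0% of the 33469 windows of this length in the RefSeq table. Marcksl1 also holds 3 matches to GGGCGG, which 30.5% of windows have at least once, and Marcks has 0. Neither holds TATAAA, found in 12.9%. G and C make up 68.0% of the Marcksl1 window and 55.6% of the Marcks window, against a median of 51.2% over all windows. The counts of CG pairs are alike, 24 and 25, above the upper quartile of 15. No motif overlapped another. These matches describe the letters of the windows only.

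Marcksl1 was low in every Lean heart and several-fold higher in every GDM heart. The Lean-LF libraries had scaled signals of 6.35, 4.88 and 6.91, from 23, 23 and 30 reads. The Lean-HFS libraries had 6.98, 4.44 and 6.28, from 27, 21 and 27 reads. These 6 values lie close together, and the ranges of the 2 Lean groups overlap.

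In GDM-LF hearts Marcksl1 stood at 40.6, 29.4 and 31.8, from 168, 137 and 186 reads. GDM-HFS hearts had 20.9, 29.9 and 30.9, from 126, 154 and 149 reads. The lowest GDM value, 20.9 in GDM-HFS 1, lay far above the highest Lean value, 6.98 in Lean-HFS 1, and the 2 kinds of dam did not overlap. Of all tested models, 51 (0.393%) were higher in all 6 GDM libraries than in any Lean library. Within LF that share was 5.57% and within HFS 6.57%. These shares are background to a gene that was chosen for this difference, and nothing is read from them.

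Group means of Marcksl1 were 5.90 ± 1.31 in Lean-HFS, 6.05 ± 1.05 in Lean-LF, 27.2 ± 5.54 in GDM-HFS and 33.9 ± 5.94 in GDM-LF (SD, n = 3 each), in rising order. The 2 Lean groups overlapped, and so did the 2 GDM groups. The gap of 21.2 between Lean-LF and GDM-HFS was larger than either SD. Over both diets the mean was 5.98 ± 1.06 in Lean and 30.6 ± 6.31 in GDM hearts (SD, n = 6 each), a ratio of 5.12. The ratio was 5.61 on the LF diet and 4.61 on the HFS diet. On the log2 scale of signal + 0.1 the dam difference was 2.33 ± 0.17 (standard error), with 2.47 ± 0.25 on LF and 2.19 ± 0.25 on HFS. Leaving out each library in turn kept the averaged difference between 2.24 and 2.42.

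The reads behind these values set their precision. In the Lean hearts the 6 values of Marcksl1 varied by 17.8% of their mean, while counting error alone would give 20.02%. In the GDM hearts the variation was 20.6% against 8.15% from counting. The exact 95% Poisson intervals, which cover counting error only, ran from 2.75 to 10.2 over the Lean libraries and from 17.4 to 47.3 over the GDM libraries. Of the read numbers from 1 to 40, 67.8 to 73.6% per library were even, so reads were not counted independently of each other. These intervals are therefore too narrow, and the percentages given for counting error are too small.

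**Figure D1:**
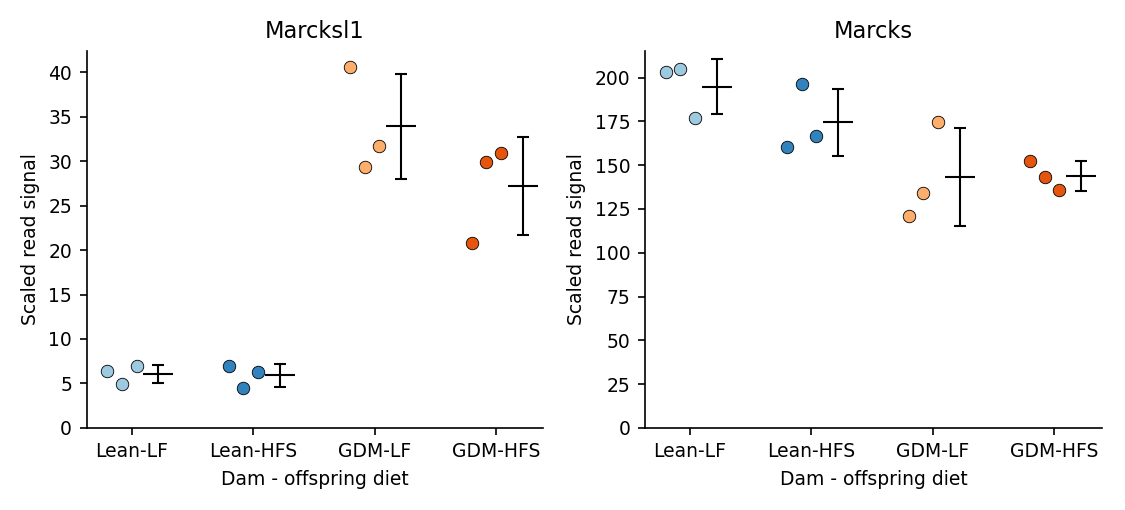
Scaled read signal of Marcksl1 (left) and Marcks (right) in each of the 12 libraries, by dam and offspring diet; points are libraries, and the bar beside them is the group mean with 1 SD (n = 3). Marcksl1 lies between 4.44 and 6.98 in Lean and between 20.9 and 40.6 in GDM hearts, while Marcks lies between 160 and 205 in Lean and between 121 and 175 in GDM hearts.

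Marcks, the founding member of the family, was abundant in every heart and differed the other way, with a somewhat lower level in GDM hearts. Lean-LF libraries had scaled signals of 203, 205 and 177. Lean-HFS libraries had 160, 196 and 167. GDM-LF libraries stood at 121, 134 and 175, and GDM-HFS libraries at 152, 143 and 136. Only GDM-LF 3, at 175, reached into the Lean range, and the other 5 GDM values were below the lowest Lean value of 160.

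Within each diet the 2 kinds of dam did not overlap for Marcks, on LF because GDM-LF 3 (175) fell just short of Lean-LF 3 (177). Among tested models 5.42% were lower in GDM-LF than in Lean-LF with no overlap, and 7.19% were lower in GDM-HFS than in Lean-HFS, so separation of 3 from 3 was common. Over both diets the groups of 6 overlapped, and 0.401% of models were lower in GDM with no overlap.

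Mean levels of Marcks rose from 143 ± 27.9 in GDM-LF and 144 ± 8.31 in GDM-HFS to 175 ± 19.1 in Lean-HFS and 195 ± 15.8 in Lean-LF (SD, n = 3 each). The GDM groups differed from each other by less than their spread, while the gap of 30.6 between GDM-HFS and Lean-HFS was above the larger SD, 19.1. The gap of 20.4 between the 2 Lean groups was only slightly above 19.1, and their ranges overlapped. The mean was 185 ± 19.2 in Lean and 144 ± 18.4 in GDM hearts (SD, n = 6 each), a ratio of 0.777. On the log2 scale the difference was -0.37 ± 0.09 (standard error) over both diets, with -0.46 ± 0.13 on LF and -0.27 ± 0.13 on HFS. A difference as low as this or lower was found in 6.48% of all tested models, and one as high as that of Marcksl1 or higher in 0.0924%. With values as deposited the HFS difference was -0.17, against a median of 0.11 for all models. Whole hearts hold many cell types, and fewer cells of a type cannot be told apart from less RNA per cell.

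Marcks, with 501 to 1022 reads per library, varied between hearts by more than this counting error. It varied by 10.4% among Lean and 12.8% among GDM hearts, against 3.58% and 3.70% from counting alone. The counting percentages treat reads as independent, which they were not, and are too small.

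Levels of different genes can be compared only per length. Per kilobase of gene model, Marcks had a signal of 34.2 in Lean-LF hearts, 30.6 in Lean-HFS hearts, 25.1 in GDM-LF hearts and 25.2 in GDM-HFS hearts. If the other placement spans 2323 bases and every Marcksl1 read came from it, its level per kilobase would be 2.60, 2.54, 14.6 and 11.7 in the same order. Spread over both placements, 22952 bases in sum, the levels would be 0.264, 0.257, 1.48 and 1.19. On either of these assumed lengths Marcks was the more abundant of the pair per kilobase in all 4 groups.

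Within each kind of dam the 2 genes were compared across libraries, since the dams form separate clusters for Marcksl1. Over the 6 Lean libraries Pearson's r between their log2 levels was -0.671 (exact permutation p = 0.179, two-sided) and Spearman's rank correlation was -0.60 (exact permutation p = 0.242). Over the 6 GDM libraries r was -0.466 (exact permutation p = 0.328) and Spearman's coefficient -0.257 (exact permutation p = 0.658). Without the 2 libraries farthest from the median of Marcksl1, r became -0.466 and 0.762. After adjustment for the 2 relations both p-values of r were 0.328 (exact permutation, Benjamini-Hochberg), so no relation was shown.

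The next question was whether the offspring's own diet after weaning moved either gene, a contrast not used in choosing them. It did not do so detectably. Averaged over dams, the log2 difference of HFS minus LF for Marcksl1 was -0.18 ± 0.17, with a 95% interval of -0.56 to 0.19 (limma, Benjamini-Hochberg adjusted p = 0.812). For Marcks it was -0.07 ± 0.09, with an interval of -0.26 to 0.12 (limma adjusted p = 0.857). For Marcksl1 a change by diet of the size seen between dams, 2.33, lies outside its averaged interval. The dam difference of Marcks was much smaller, at -0.37. It lies outside the averaged diet interval of Marcks but inside its interval in Lean offspring, which reaches -0.44.

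In Lean offspring the diet difference of Marcksl1 was -0.04 ± 0.25 (interval -0.57 to 0.49, limma adjusted p = 0.983) and that of Marcks -0.16 ± 0.13 (interval -0.44 to 0.11, limma adjusted p = 0.881). In GDM offspring they were -0.32 ± 0.25 (interval -0.85 to 0.21, limma adjusted p = 0.932) and 0.02 ± 0.13 (interval -0.25 to 0.30, limma adjusted p = 0.993). The small differences are unsteady in sign. Marcksl1 in Lean offspring became 0.06 with values as deposited and 0.14 without Lean-HFS 2, and Marcks averaged over dams became 0.03 with values as deposited and 0.01 without GDM-LF 3. Limma called 0 of 12980 models in the averaged diet contrast (0%), with 1028 at an unadjusted p under 0.05 (7.92%), while edgeR called 0 and DESeq2 31. In Lean and in GDM offspring alone limma also called 0 models, with 5.21% and 5.57% at an unadjusted p under 0.05, while DESeq2 called 0 and 7.

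The interaction asks whether the dam difference depended on the offspring's diet. For Marcksl1 it was -0.28 ± 0.35 on the log2 scale (interval -1.03 to 0.47, limma adjusted p = 0.999), a somewhat smaller dam difference on HFS. For Marcks it was 0.18 ± 0.18 (interval -0.20 to 0.57, limma adjusted p = 0.999). Neither passed, and the intervals leave room for a change of the Marcksl1 dam difference by up to 1.03 on the log2 scale. Limma, edgeR and DESeq2 each called 0 models in this contrast (0%), and 391 (3.01%) had an unadjusted p under 0.05 by limma.

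**Figure D2:**
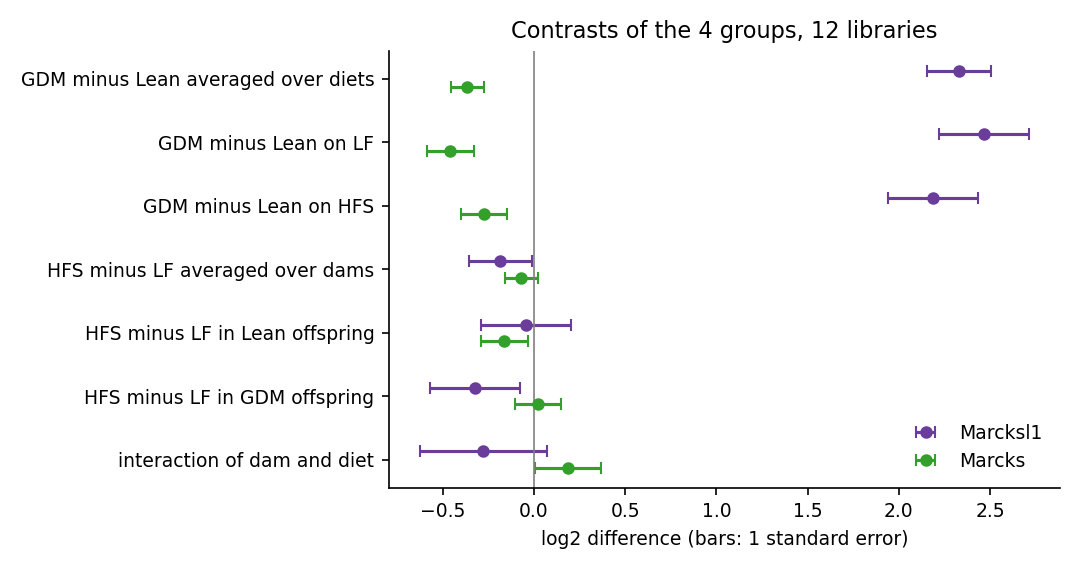
Log2 differences of Marcksl1 and Marcks in the 7 contrasts of the 4 groups; the horizontal axis is the difference in log2 of signal + 0.1, points are estimates from 12 libraries and bars are 1 standard error. The dam differences of Marcksl1 (2.19 to 2.47) lie far to the right of 0 and those of Marcks (-0.46 to -0.27) to the left, while diet and interaction values lie between -0.32 and 0.18.

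Genes next to each placement were read to see whether the surroundings moved with the members. On chromosome 1 the nearest row before the Marcksl1 placement, at 301 kb, is Map3k10, a stress-pathway kinase, and the nearest after it, at 166 kb, is Psmc4, a proteasome ATPase. Map3k10 differed between dams by -0.12 ± 0.11 (limma adjusted p = 0.734) and Psmc4 by -0.05 ± 0.06 (limma adjusted p = 0.81). Akt2, an insulin-signalling kinase, stood at 0.06 ± 0.06 (limma adjusted p = 0.766).

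Fcgbp, a mucin-like secreted protein 191 kb after the placement, stood farthest from 0 of these neighbours, lying between 5.53 and 12.3 in Lean libraries (mean 8.78 ± 2.80) and between 2.22 and 6.00 in GDM libraries (mean 4.44 ± 1.30; SD, n = 6 each). Its difference was -0.97 ± 0.28, opposite in sign to that of Marcksl1 and not past the threshold (limma adjusted p = 0.236). Fcgbpl1 stood at -0.14 ± 0.80 on at most 8 reads, and Ttc9b, with at most 2 reads, was not tested. Limma called 8 of 12980 models in the dam contrast (0.0616%) and 0 of the 5 tested neighbours on chromosome 1. Within LF it called 4 (0.0308%, with 4.98% at an unadjusted p under 0.05) and within HFS 2 (0.0154%, with 9.64%).

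On chromosome 5 RefSeq places Marcksl1 between Fam229a and Hdac1, 2 genes whose rows in the table leave a gap of 23.3 kb. These neighbours were read from the later GRCr8 build and added after the placement of the row had been seen. Hdac1, a histone deacetylase, was at 83.6 ± 10.1 in Lean and 78.2 ± 4.28 in GDM hearts (log2 difference -0.09 ± 0.08, limma adjusted p = 0.742). Bsdc1 stood at -0.05 ± 0.07, the translation factor subunit Eif3i at -0.12 ± 0.10, and Lck, a T cell kinase, at -0.41 ± 0.27, with limma adjusted p = 0.852, 0.697 and 0.613. Tssk3, a testis kinase, was at -0.28 ± 0.66 on at most 20 reads (limma adjusted p = 0.906), and Fam229a was not tested. So 0 of the 5 tested genes were called on this side too.

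Around Marcks, Hdac2 lies nearest, 113 kb after it, and was higher in GDM hearts by 0.14 ± 0.06 without passing (limma adjusted p = 0.403). Frk, Nt5dc1 and Tspyl4 before it were at 0.10 ± 0.13, 0.16 ± 0.09 and 0.27 ± 0.17, and Lama4, a laminin chain of vessel walls, at -0.07 ± 0.08. Fam229b, on at most 20 reads, was at 0.46 ± 0.48. All 6 had a limma adjusted p of 0.403 to 0.806. Limma called 0 of these 6 between dams.

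**Figure D3:**
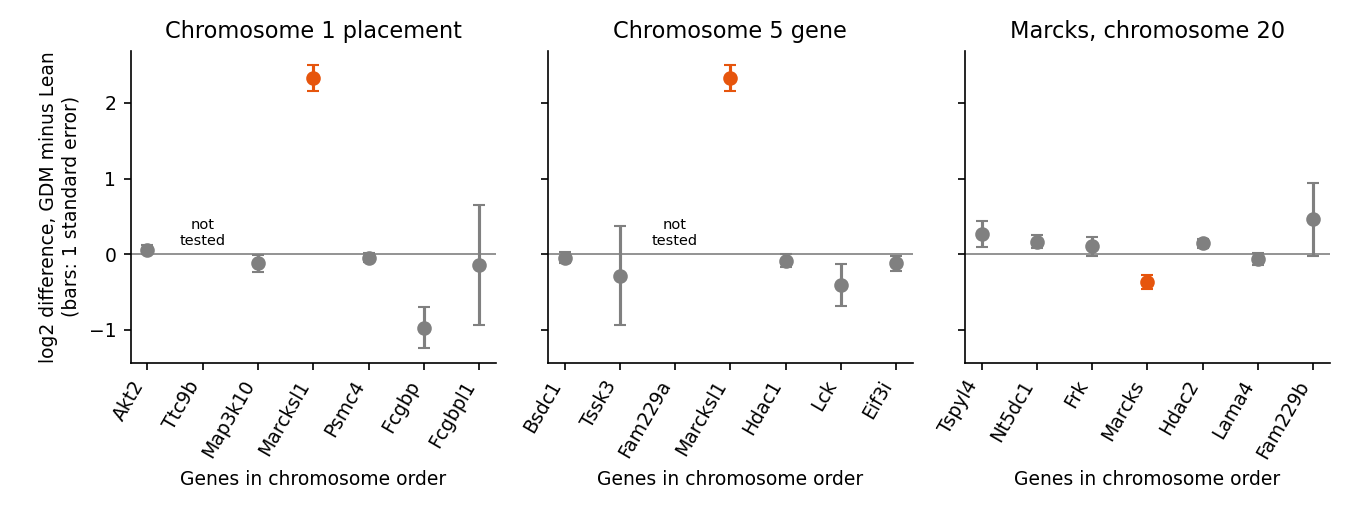
Log2 difference between GDM and Lean hearts (vertical axis, bars 1 standard error, 12 libraries) for the 3 genes on each side of the chromosome 1 placement of Marcksl1, of its chromosome 5 position in RefSeq and of Marcks. The Marcksl1 row (orange, the same value in both left panels) stands at 2.33 and its tested neighbours between -0.97 and 0.06, while Marcks stands at -0.37 between neighbours at -0.07 to 0.46.

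The genes whose pattern was most like that of Marcksl1 over the 12 libraries, by Pearson's r of log2 levels, were Kctd16 (0.976), Tmco1 (0.938), Tmem47 (0.930), Nxn (0.919) and U2af1 (0.915). Since Marcksl1 forms 2 clusters by dam, these values mainly rank genes that separate the dams, and no test was made. Kctd16, whose protein binds GABA-B receptors, averaged 8.16 ± 5.01 in Lean and 90.9 ± 21.1 in GDM hearts (SD, n = 6 each). Tmco1, a calcium channel protein of the endoplasmic reticulum, had a much smaller difference, 51.8 ± 1.53 against 60.1 ± 1.70 (SD, n = 6 each), with no overlap.

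After group means were subtracted, the likeness to Marcksl1 kept 2 genes high: U2af1, a splicing factor that reads the end of introns, at r = 0.922 and Kctd16 at 0.716. For Nxn, Tmco1 and Tmem47 it was 0.375, 0.096 and -0.13. These genes were picked for likeness over the same libraries, so high values within groups follow in part from the choice. U2af1 itself moved little, from 65.5 ± 3.41 in Lean to 74.4 ± 3.07 in GDM hearts (SD, n = 6 each), with ranges that overlapped.

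For Marcks the most alike were Meis3 (r = 0.926), a homeobox transcription factor, Litaf (0.892), an endosomal membrane protein, Slpi (0.891), a secreted protease inhibitor, Atp11a (0.888), a phospholipid flippase, and the kinase Mink1 (0.884). After group means were subtracted r was 0.84, 0.844, 0.736, 0.951 and 0.699. These genes were picked from all tested models for their likeness over the same libraries, so high values within groups and lower GDM means follow in part from the choice, and no test was made. Means in Lean and GDM hearts went from 17.9 ± 6.33 to 6.78 ± 3.46 for Slpi and from 250 ± 13.4 to 232 ± 19.5 for Atp11a (SD, n = 6 each).

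The partners of the MARCKS proteins were read from 6 lists with 75 genes, of which 74 could be tested. Limma called 0 of the 74 in the dam contrast, against 0.0616% of all models, and 6 (8.11%) had an unadjusted p under 0.05, against 11.2% of all models. EdgeR called 0 of the 74 and DESeq2 1, profilin Pfn1. Over all 12980 tested models edgeR called 8 and DESeq2 153 in this contrast. The call of Pfn1 is therefore not read as particular to the partner lists. In the averaged diet contrast limma, edgeR and DESeq2 each called 0, and 5 (6.76%) had an unadjusted p under 0.05, against 7.92% of all models.

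Protein kinase C phosphorylates the effector domain, and all 9 isoforms listed passed the filter on low values, whether or not each of them acts on MARCKS proteins. Of these, 6 were lower and 3 higher in GDM hearts, with a median log2 difference of -0.05 against 0.00 for all models. Prkce, at 814 ± 110 in Lean and 873 ± 90.9 in GDM hearts, and Prkca, at 412 ± 67.1 and 438 ± 84.1 (SD, n = 6 each), differed by less than their spread. The lowest p in this list belonged to Prkcb, an isoform of immune and vessel cells, at 87.0 ± 11.98 and 71.4 ± 5.86 (log2 difference -0.28 ± 0.09, limma adjusted p = 0.29). By diet it belonged to Prkch, at 0.10 ± 0.06 (limma adjusted p = 0.69), and the list's median was 0.08 against 0.01 for all models.

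Calmodulin comes from 3 genes, and the lowest p in both contrasts was that of Calm3, at 136 ± 14.8 in Lean and 146 ± 14.2 in GDM hearts (SD, n = 6 each). Its log2 differences were 0.10 ± 0.09 by dam and 0.08 ± 0.09 by diet, with limma adjusted p = 0.697 and 0.836. The list's medians were 0.08 and 0.01. The list of 10 modifying enzymes holds the transferases that attach the fatty acid, kinases, phosphatases and the protease Ctsb, and 5 were higher and 5 lower in GDM hearts, with a median of 0.00. The phosphatase Ppp1ca was at -0.19 ± 0.06 by diet (limma adjusted p = 0.513), where the list's median was 0.02.

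Enzymes that make or consume PIP2, the lipid the effector domain holds, were higher in 11 and lower in 10 of 21 members in GDM hearts, with a median of 0.01. Pip5k1c, a PIP2-making kinase, had 186 ± 12.6 in Lean and 159 ± 14.5 in GDM hearts (SD, n = 6 each; log2 difference -0.23 ± 0.06, limma adjusted p = 0.229). By diet the median was 0.04, and the lowest p was that of the phospholipase Plcb1, at 0.30 ± 0.13 (limma adjusted p = 0.59).

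Actin filament regulators had negative dam differences in 17 of 22 members, with a median of -0.06 against 0.00 for all models. Pfn1, which feeds actin monomers to growing filaments, had the lowest p, at 318 ± 26.7 in Lean and 256 ± 21.4 in GDM hearts (SD, n = 6 each; log2 difference -0.31 ± 0.07, limma adjusted p = 0.166). Cytoplasmic actin Actb, at 2231 ± 282 and 1953 ± 187 (SD, n = 6 each), stood at -0.19 ± 0.09 (limma adjusted p = 0.448). By diet 14 of 22 were positive, with a median of 0.04, and the actin-sequestering peptide Tmsb4x had the lowest p, at -0.14 ± 0.05 (limma adjusted p = 0.513).

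Other membrane proteins that are targets of protein kinase C or calmodulin were lower in GDM hearts in 6 of the 9 tested, with a median of -0.12. Cavin2, a coat protein of caveolae, had the lowest p in both contrasts. It was at 590 ± 62.2 in Lean and 684 ± 28.4 in GDM hearts (SD, n = 6 each; log2 difference 0.22 ± 0.06, limma adjusted p = 0.242), and at -0.12 ± 0.06 by diet (limma adjusted p = 0.649). Gap43 and Basp1, which share with MARCKS proteins the ability to hold PIP2, had 2.13 ± 1.70 and 18.4 ± 2.78 in Lean against 2.33 ± 1.42 and 16.6 ± 4.17 in GDM hearts (SD, n = 6 each).

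**Figure D4:**
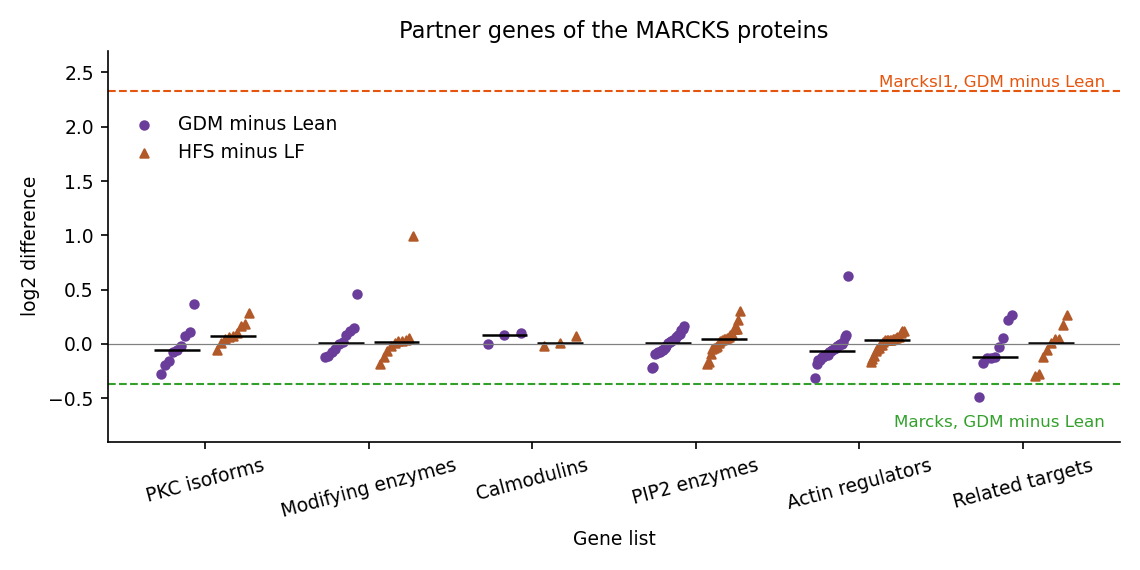
Log2 differences of the 74 tested partner genes (vertical axis), by list (horizontal axis, 6 lists), between GDM and Lean hearts (circles) and between HFS and LF hearts (triangles), with black lines at list medians and dashed lines at the dam differences of Marcksl1 (2.33) and Marcks (-0.37). List medians lie between -0.12 and 0.08, and limma called none of the 74 genes in either contrast.

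Markers of other heart cell types were read beside the members. Averaged over diets, macrophage markers had lower values in GDM hearts in all 10 genes, with a median log2 difference of -0.32 and 0 called by limma. By limma 6 had an unadjusted p under 0.05, against 11.2% of all models. On LF 7 of the 10 markers were lower, with a median of -0.16, and on HFS all 10 were, with a median of -0.49. Their summed signal was 923 to 1707 in Lean and 787 to 1018 in GDM hearts, highest in Lean-HFS 2, where Marcks was 196. Pooled over the 12 libraries, Pearson's r between Marcks and the mean log2 level of these markers was 0.675. Both differ between dams, so this value is a description with no test. Within the 6 Lean libraries r was 0.347 (exact permutation p = 0.692, two-sided) and Spearman's coefficient 0.143 (exact permutation p = 0.803). Within the 6 GDM libraries r was 0.454 (exact permutation p = 0.375) and Spearman's coefficient 0.486 (exact permutation p = 0.356). Without the 2 libraries farthest from the marker median, Lean-LF 2 and Lean-HFS 2, the Lean r turned to -0.965, and without GDM-LF 3 and GDM-HFS 3 the GDM r was 0.307. No relation within a kind of dam was thus shown. None of the 10 markers was at 0 in all libraries. The part of macrophages in the Marcks difference was not tested.

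In all, 24 such relations were computed, 12 marker lists within each kind of dam, and their adjusted p ran from 0.247 to 0.975 (exact permutation test, Benjamini-Hochberg). The lowest p of r were of lymphocyte and Schwann markers in GDM hearts (r = 0.884 and 0.842, exact permutation p = 0.0194 and 0.0236). For atrial and cardiomyocyte markers in GDM hearts r was 0.824 and -0.726 (exact permutation p = 0.0514 and 0.103). Spearman's coefficient there was 0.943 for lymphocyte, Schwann and atrial and -0.943 for cardiomyocyte markers (exact permutation p = 0.0167 each, not adjusted). Without the 2 libraries farthest from each marker median, r was 0.993, 0.937, 0.973 and -0.811. In Lean hearts r was 0.0697 for lymphocyte, 0.561 for Schwann, -0.548 for atrial and -0.0555 for cardiomyocyte markers. The 8 neuron markers found had a summed signal of 13.3 to 32.4 per library. The 4 tested had r = 0.841 with Marcks in Lean hearts (exact permutation p = 0.0472, adjusted p = 0.247). In GDM hearts their r was 0.66 (exact permutation p = 0.165, adjusted p = 0.441). Spearman's coefficient was 0.714 in Lean and 0.143 in GDM hearts (exact permutation p = 0.136 and 0.803). Without the 2 libraries farthest from the marker median, r was 0.993 and 0.108. All 10 atrial markers had positive log2 differences between GDM and Lean hearts, with a median of 0.85 and 0 called by limma. Their sums overlapped widely, at 1890 to 6561 in Lean and 1430 to 19790 in GDM hearts. The lowest sum was in GDM-LF 1, where Marcksl1 was 40.6, and the highest in GDM-HFS 1, where it was 20.9. No relation of Marcksl1 with a marker list was computed, and the part of atrial tissue in its difference was not tested.

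**Figure D5:**
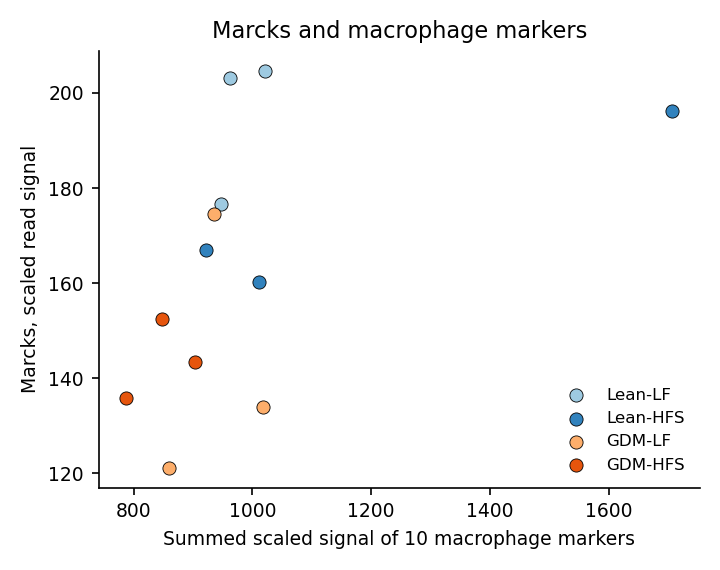
Scaled read signal of Marcks (vertical axis) against the summed signal of 10 macrophage markers (horizontal axis) in the 12 libraries, coloured by group. Lean-HFS 2 stands apart at 1707 on the marker axis, and the 3 GDM-HFS libraries (787 to 904) lie at the lower left with Marcks at 136 to 152. The lowest Marcks values, 121 in GDM-LF 1 and 134 in GDM-LF 2, were at 860 and 1018 on the marker axis, the latter within the Lean range.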

How the data were processed

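RNA sequencing covered 12 heart libraries. Reads were aligned with STAR 2.5.1b to Rnor_6.0, per the labels' protocols. HOMER 4.9, edgeR, FastQC and Trim Galore appear in the submitters' processing notes, with no roles. How reads were shared between placements was not given in the sources used. The deposited table, named FPKM, holds a normalised read signal: all 161681 values above 0 are whole reads, within 0.1 read, times 1 constant per library, and no length division was made. The length and placement numbers are other columns of the deposited table.

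Values were divided by median-of-ratios factors (0.89 to 1.15) and models with a mean of at least 0.5 were kept. R 4.3.3 with limma 3.58.1 was run on log2(value + 0.1) in 1 model of 4 group means with a variance trend, and Benjamini-Hochberg adjustment over 12980 models at 0.05. Fold changes understate those of low genes. edgeR 4.0.16 and DESeq2 1.42.0 on recovered reads were alternatives, beside other pseudocounts, filters and scalings, a replicate block and leaving out each library. Limma and edgeR, not DESeq2, were run on simulated data with known changes, whose values are not given here. No 2 libraries held identical values.

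Named genes were the members, the 5 models most alike by Pearson's r that no model with 25% of their value overlaps, the 3 nearest rows per side, and of each partner list the called genes or the one with the lowest p, of which 1 is not reported here. Other genes named, such as Prkce, Prkca, Actb, Gap43 and Basp1, were chosen after their values were seen. The members and lists were chosen with earlier results of these data known. Replicate numbers were not taken as pairs, though Lean-LF and Lean-HFS libraries of the same number were more alike than those of other numbers.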

Additional observations from a re-analysis of the deposited data

How the results depend on the processing

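The 2 members were recomputed in 7 contrasts under 21 alternatives, 12 of which leave out 1 library. Of the 168 diet and interaction values 0 crossed the threshold, and the 126 dam differences, which carry no test, all kept their sign. Sign changed in 8 diet values, none called. Marcks averaged over dams (-0.07) was 0.029 as deposited and -0.13 to 0.0061 leaving out 1 library. Marcksl1 in Lean offspring (-0.04) was 0.056 as deposited and -0.19 to 0.14 leaving out 1 library. Marcks in GDM offspring (0.02) was -0.089 to 0.17 leaving out 1 library. The cause was not tested. Numbers of called models moved more. Between dams 8 became 13 as deposited, 153 with DESeq2 and 6 to 20 leaving out 1 library (20 without Lean-HFS 3). On LF 4 became 17 with DESeq2 and 2 to 6 leaving out 1 library (2 without Lean-LF 1 or GDM-LF 1). On HFS 2 became 49 with DESeq2 and 2 to 4 leaving out 1 library (4 without Lean-HFS 1). For diet, 0 became 31 averaged over dams and 7 in GDM offspring with DESeq2, and leaving out 1 library gave 0 to 3 in Lean offspring (3 without Lean-LF 3) and 0 to 1 in GDM offspring (1 without Lean-HFS 1). The replicate block gave 1 model called in GDM offspring in place of 0 and changed no call of the members. After group means were subtracted, same-numbered libraries had correlations of -0.098 to 0.116, over 0.1 in 1 of 18 pairs. Libraries of other numbers had -0.132 to 0.2, over 0.1 in 1 of 36. Between Lean-LF and Lean-HFS, however, same-numbered libraries were at 0.074, 0.061 and 0.116 and the others at -0.071 to -0.0047. The numbers were not taken as pairs in the main model, and shared litters or batches were not tested.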

Other observations

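Rows that merge several placements are 3.21% of the table (556 of 17322), and 152 of them (27.3%) passed the filter on low values, against 76.5% of rows with 1 placement.

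Among the MARCKS partners, 4 rows hold 2 placements. Calm2 (334 ± 41.8 in Lean and 352 ± 20.2 in GDM hearts) and cytoplasmic actin Actg1 (363 ± 24.1 and 340 ± 44.0) were abundant (SD, n = 6 each). The phosphatase gene Ppp2ca (0.834 ± 0.457 and 1.35 ± 0.999) and profilin Pfn2 (0.675 ± 0.376 and 1.00 ± 0.249) had at most 14 and 6 reads in a library, while the single-placement row of Ppp2cb stood at 133 ± 10.5 and 132.5 ± 5.66 (SD, n = 6 each).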
